A study of Mus musculus with 16 samples.

Results

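The 9 genes described here encode enzymes that break down amino acids and related nitrogen compounds in the liver. They were taken by symbol from a table of 47069 gene IDs: Tat, Hpd, Hgd and Fah of tyrosine breakdown, Tdo2 of tryptophan, Hal of histidine, Sds of serine, Gls2 of glutamine, and Etnppl of phosphoethanolamine. All 9 were found, each as 1 gene ID, and all 9 passed the filter on low values in every comparison. Their levels were read from 16 mRNA libraries of mouse liver and liver tumour tissue.

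Every mouse, in every group, had been treated with diethylnitrosamine (DEN), a carcinogen that hepatocytes activate and that leads to hepatocellular carcinoma. No liver without DEN was analysed here, so each comparison is between DEN-treated animals. The livers were 2 on a high-fructose and 3 on a cornstarch diet at 5 months of age, and 3 on each diet at 9 months. The liver tumours, all of 9 months, were 3 on fructose and 2 on cornstarch. The labels gave no strain, no sex and no link between tumours and livers of the same animal, nor did they say which libraries came from separate mice. The p-values therefore speak only of the spread among these samples, some of which may be technical.

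Amino acids that reach the liver in the portal blood are degraded by hepatocytes, which pass the nitrogen to the urea cycle and the carbon skeletons to glucose or energy production. The liver lobule is zoned: hepatocytes around the portal vein carry most of the urea cycle and of glutamine hydrolysis, whereas those around the central vein take up the remaining ammonia through glutamine synthetase (Glul). Hal, Sds and Gls2 are commonly used to mark the periportal side. Several of these enzymes, Tat and Sds foremost, are induced by glucagon and glucocorticoids in fasting. Tat, Hpd, Hgd and Fah act in this order in tyrosine breakdown. Tat removes the amino group, Hpd makes homogentisate and Hgd opens its ring. After a further step by Gstz1, Fah splits the product into fumarate and acetoacetate.

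The promoters of the 4 genes whose tumours lay below every 9-month liver are shown to give their sequence context. RefSeq start sites on GRCm38.p6 were matched for 7 of the 9 genes, all but Sds and Gls2. For Etnppl 2 promoters were listed, and only the first was read here. Each window is 100 bases, read 5′ to 3′ on the gene's own strand, and ends just before the RefSeq start. The exception is Hpd, where it ends 5 bases upstream of that start, just before the GENCODE first exon. Capitals mark matches, on either strand, to the GC box GGGCGG, the CCAAT box or the TATA box TATAAA. The windows are chr5:123182728-123182827 (minus strand) for Hpd, chr7:84605943-84606042 (minus) for Fah, chr10:93488668-93488767 (plus) for Hal and chr3:130617348-130617447 (plus) for Etnppl. GENCODE places the start of Fah further upstream, so that the Fah window lies inside that gene's GENCODE interval, which ends at 84606722.
Hpd: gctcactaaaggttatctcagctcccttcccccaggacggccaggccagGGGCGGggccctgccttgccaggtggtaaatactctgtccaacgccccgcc
Fah: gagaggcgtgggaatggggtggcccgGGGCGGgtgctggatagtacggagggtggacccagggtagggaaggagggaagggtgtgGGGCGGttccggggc
Hal: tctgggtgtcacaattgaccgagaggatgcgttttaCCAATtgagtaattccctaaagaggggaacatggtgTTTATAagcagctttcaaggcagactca
Etnppl: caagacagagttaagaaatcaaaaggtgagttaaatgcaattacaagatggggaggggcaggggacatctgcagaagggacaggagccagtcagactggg

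The windows differed in kind. Hpd and Fah held GC boxes, Hal held a CCAAT box and, 28 bases before its start, a TATA box on the opposite strand, and the Etnppl window held none of the 3 motifs. Over the full 300 bases kept for each gene, a GC box also reached the start of Etnppl, Tat had CCAAT boxes, and Hgd and Tdo2 had a CCAAT and a TATA match each. Among 32851 mouse promoters of that length, 35.7% held GGGCGG, 37.4% CCAAT and 13.6% TATAAA. Neither GTTAAT (an HNF1 half-site, in 7.1% of promoters) nor TGTTCT (a glucocorticoid receptor half-site, in 19.0%) was found in the 7 promoters on either strand. These matches are descriptions of letters and say nothing about binding.

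Values below are the authors' normalised counts, which are reads divided by a factor for each library. Total depth was 11232461 to 38377674 reads per library, and the 9 genes were covered by 33 reads (Etnppl, in a fructose tumour) to 86757 reads (Tat, in a 5-month liver). Hepatocyte markers were high in all 6 groups: none of the 11 measured was at 0 in any library. Replicate 1 of the 5-month fructose livers and replicate 1 of the 5-month cornstarch livers had Xist and almost no Y-linked signal, whereas the other 14 libraries had Y-linked signal. Of these 14, replicate 3 of the 9-month cornstarch livers also had Xist, at 226. Below, "both libraries with Xist" means replicate 1 of each 5-month group, without Y-linked signal, and not that 9-month liver. They were also in the fit for diet in livers at 9 months, which held all 11 livers. Replicate 3 of the fructose tumours stood apart from the other 4 tumours in pericentral genes: Glul was 115419 there and 2478 to 12989 in the others, and Axin2 was 1329 against 25.5 to 97.9.

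Compared per kilobase of exon, Hpd and Tat were the most abundant of the 9 in liver, with means over the 11 livers of 16562 and 13676 normalised counts per kb. Tdo2 (6047), Fah (4542), Hgd (4057), Sds (2682), Gls2 (1733) and Hal (951) followed, and Etnppl was lowest at 228. In the 5 tumours the range was narrower at the top, with Hpd at 3447, Tat at 3354 and Tdo2 at 3323 per kb, and Etnppl at 26.6. These lengths are the union of all annotated exons on GRCm38, which lowers the value of genes with long untranslated or rare exons. Exons of Sds overlap those of Plbd2 and Gm15690, and exons of Gls2 overlap those of Spryd4, on the opposite strand. Whether reads were counted by strand is not given in the sources used here. If reads were counted without strand, reads of these overlapping exons cannot be told apart.

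**Figure D1:**
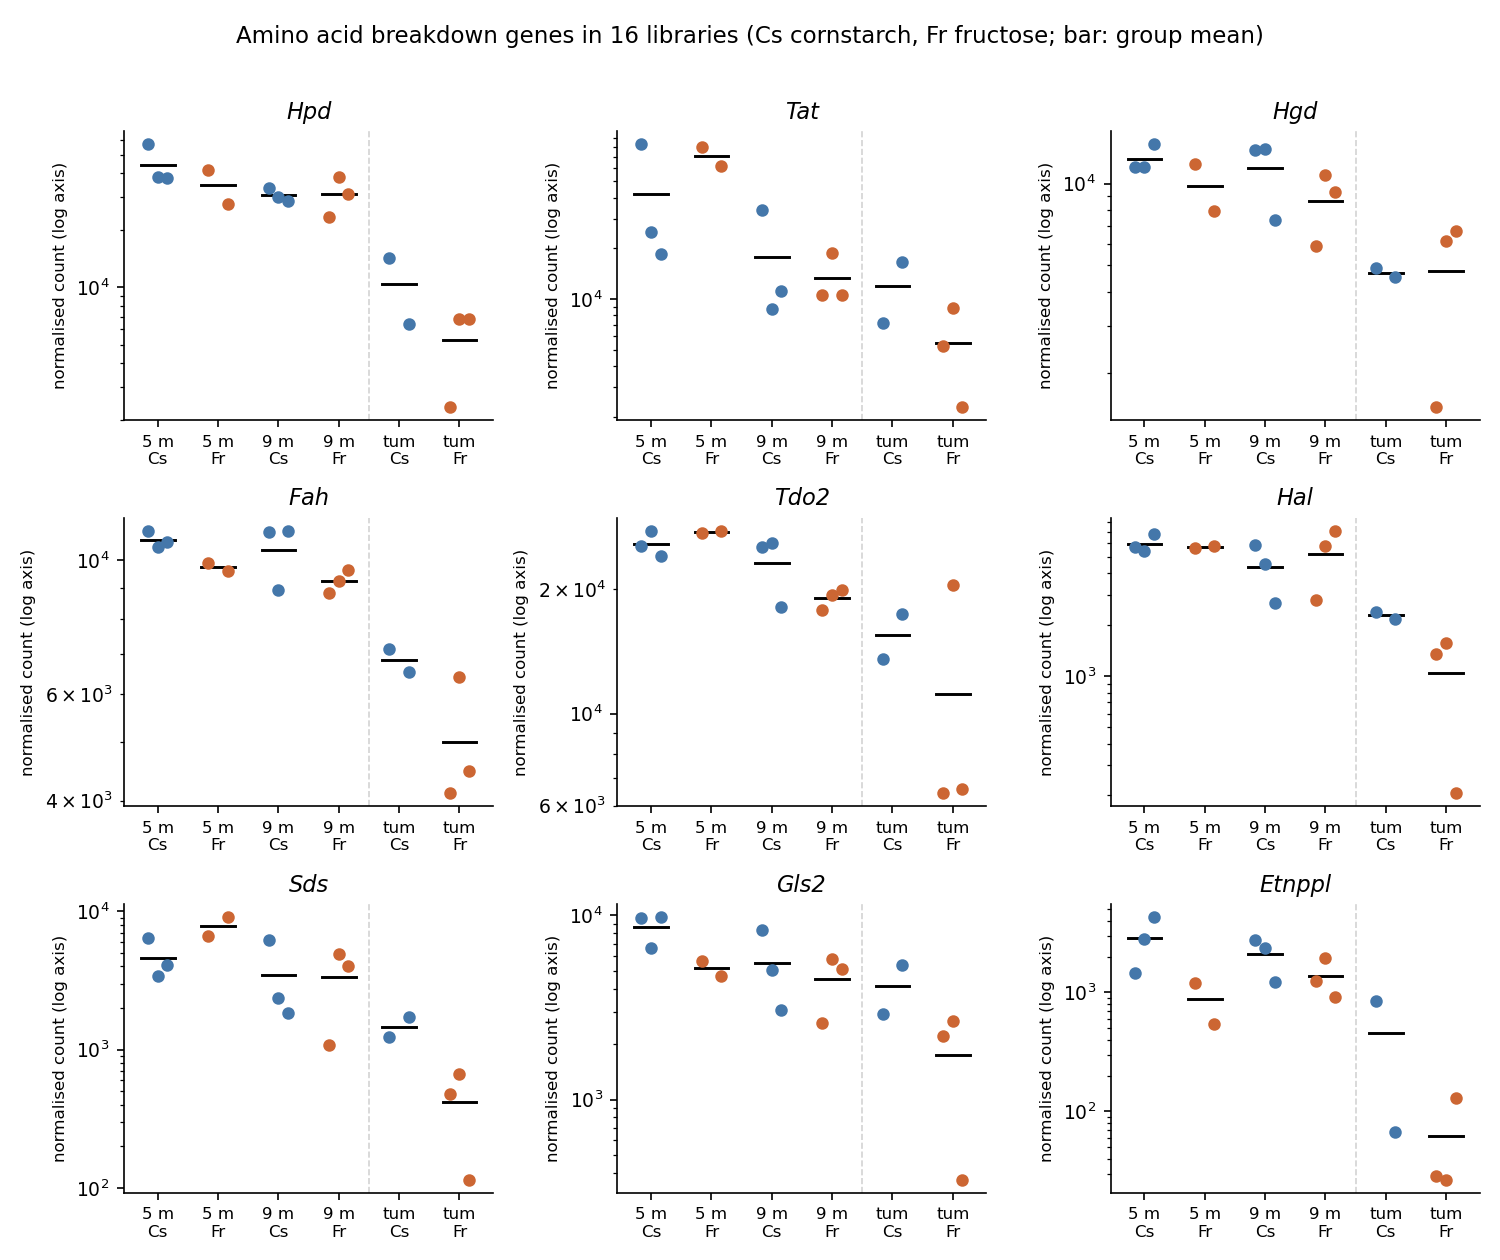
Normalised counts of the 9 genes in each of the 16 libraries (logarithmic vertical axis), by group, with a bar at each group mean. Etnppl and Hpd show tumours below every 9-month liver, Tat varies widely among livers of 1 group, and replicate 3 of the fructose tumours is the lowest library for Hal, Sds and Gls2.

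The comparison of tumours with livers at 9 months asked how the tumours' levels of these enzymes stood against those of liver. Hpd, Fah, Hal, Sds and Etnppl fell in tumours, and Hgd, Tdo2, Tat and Gls2 did not pass the test, although their fitted differences were also negative. In limma's test with Benjamini-Hochberg adjustment over 14503 genes, 5 of the 9 were thus called lower and none higher, where 10.5% of all genes tested were called lower and 23.8% in either direction. The median log2 difference over the 9 genes was -1.15, against -0.01 over all genes tested. Groups did not overlap, with every tumour below every 9-month liver, for 4 of the 9 (Hpd, Fah, Hal and Etnppl), where 5.02% of genes showed this. The fit held 5 tumours and 6 livers, with both diets in each tissue weighted equally. In bulk tissue, fewer cells of a type and less RNA per cell cannot be told apart.

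Hpd, the dioxygenase of the second step of tyrosine breakdown, was 23609, 38363 and 31310.5 normalised counts in livers on fructose and 33327, 30055 and 28437 in those on cornstarch. In tumours it was 2344, 6789 and 6799 on fructose and 14317 and 6426 on cornstarch. Every tumour lay below every liver, the highest being cornstarch tumour 1. The difference was -2.17 on the log2(value + 1) scale (SE 0.32), or 4.51-fold lower (limma, adjusted p = 0.00143), and it stayed past the threshold without any 1 of the 11 libraries, at -2.46 to -1.89.

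Fah, the last enzyme of the pathway, whose loss causes hereditary tyrosinaemia, changed least among the genes that were called. It ranged from 8810.2 to 11189 in the 6 livers and from 4113 to 7118 in the 5 tumours. The livers were close together, with a mean of 9226 ± 411 (SD, n = 3) on fructose and 10411 ± 1294 (SD, n = 3) on cornstarch. The tumours were 1.69-fold lower (log2 difference -0.76, SE 0.15, limma adjusted p = 0.00537), a small difference that was large beside the spread between libraries.

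Hgd and Tat, the other members of the tyrosine pathway, did not pass the test. Hgd was 5881, 10750.2 and 9305 in fructose livers and 13347, 13399.6 and 7364 in cornstarch livers. The tumours gave 1507, 6126 and 6674 on fructose and 4873 and 4521 on cornstarch. Only the fructose tumours 2 and 3 overlapped the livers, and these overlapped only the lowest liver, fructose liver 1. The difference in Hgd was -1.15 (SE 0.38, limma adjusted p = 0.0514), just over the threshold of 0.05. Under 8 of its 20 alternatives Hgd did pass. These were the stricter filter (limma, adjusted p = 0.0499), TMM scaling (0.0498), DESeq2 (0.0105) and 1 fit of all 16 libraries (0.0237). It also passed in limma's test without cornstarch liver 3 (-1.30, adjusted p = 0.0469) or without fructose tumour 1 (-0.81, 0.0333), 2 (-1.31, 0.0399) or 3 (-1.34, 0.0260). Tat, the transaminase that opens the pathway, was 8760.5 to 33631 in livers and 2293 to 16629.6 in tumours, a difference of -0.94 (SE 0.45, limma adjusted p = 0.155). The highest liver, cornstarch replicate 1 at 33631, stood well above the other 5, which were at most 18867.

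Tdo2, the haem dioxygenase that opens the main route of tryptophan breakdown, was 17809 to 25825 in the 6 livers. Of the tumours, fructose tumour 2 at 20483 lay inside that range, and the other 4 lay below it, at 6426, 6592, 13582 and 17394. The difference was -0.78 (SE 0.30, limma adjusted p = 0.0857). It passed under 2 of 20 alternatives: without fructose tumour 2, where it was -1.05 (limma, adjusted p = 0.00344), and in 1 fit of all 16 libraries, where it was again -0.78 (0.0412).

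Hal, histidine ammonia-lyase, was 2801, 5765 and 7111 in fructose livers and 5867, 4521 and 2670.5 in cornstarch livers. It was 1348, 1570.3 and 205 in fructose tumours and 2385 and 2159.9 in cornstarch tumours. The groups did not overlap, but the highest tumour (2385) was close to the lowest liver (2670.5). The difference was -1.77 (SE 0.51, 3.42-fold lower, limma adjusted p = 0.0291). Without fructose tumour 3, the library of high Glul, it was -1.30.

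Sds, serine dehydratase, which turns serine into pyruvate, was 1085, 4882 and 4034 in fructose livers and 6202, 2374 and 1828 in cornstarch livers. Tumours held 478, 662 and 115 on fructose and 1225 and 1716 on cornstarch. Fructose liver 1 lay among the tumours, below both cornstarch tumours. The difference was -2.05 (SE 0.55, 4.15-fold lower, limma adjusted p = 0.0220), and -1.67 without fructose tumour 3. The calls of Hal and Sds were the least firm. Both were lost without fructose liver 2 (limma adjusted p = 0.0631 for Hal and 0.0524 for Sds), without fructose liver 3 (0.0654 and 0.0508), without cornstarch tumour 1 (0.0647 and 0.0657) or without cornstarch tumour 2 (0.106 and 0.0673). In those 4 fits 3 of the 9 genes were called. Hal alone was also lost without cornstarch liver 1 (0.0603) or cornstarch liver 2 (0.0600).

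Gls2, the liver glutaminase that releases ammonia from glutamine, was 2600.0, 5809.6 and 5123 in fructose livers and 8352, 5046 and 3060.0 in cornstarch livers. The tumours were 2211, 2683 and 368 on fructose and 2896 and 5335 on cornstarch. Apart from fructose tumour 3 (368), the tumours lay within or just under the livers' range. The difference was -1.04 (SE 0.52, limma adjusted p = 0.168) with that tumour and -0.58 without it.

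Etnppl, a lyase that degrades phosphoethanolamine, a building block of membrane lipids, had the largest difference of the 9. It was 1257, 1948 and 920.0 in fructose livers and 2733, 2366 and 1213 in cornstarch livers. In tumours it was 28.7, 26.7 and 130.5 on fructose and 844 and 67.4 on cornstarch. Cornstarch tumour 1, at 844, was just under the lowest liver, while the other 4 tumours were far below all livers. The difference was -3.92 (SE 0.64), or 15.1-fold lower (limma, adjusted p = 0.00220). It was -4.82 without cornstarch tumour 1 and -3.01 without cornstarch tumour 2, and stayed past the threshold in both.

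**Figure D2:**
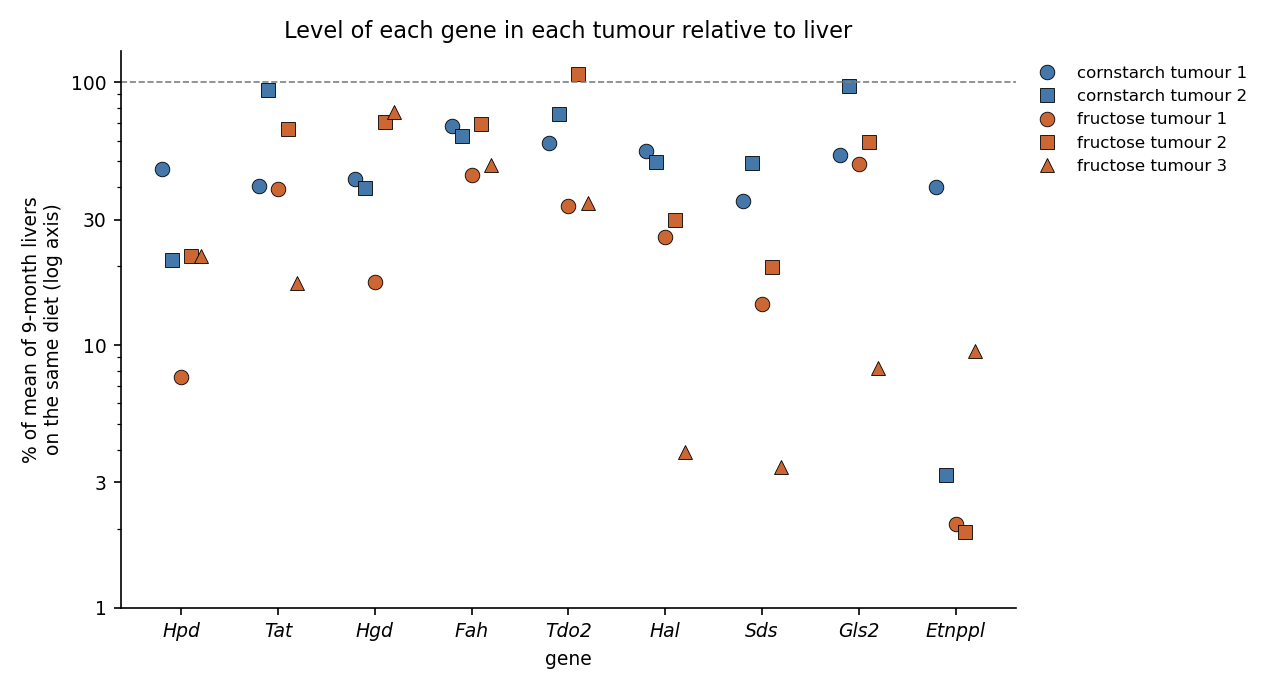
Level of each gene in each of the 5 tumours as a percentage of its mean over the 9-month livers on the same diet (logarithmic axis). Etnppl stands at 1.94% to 9.49% in 4 tumours and 40.1% in cornstarch tumour 1, and Hal, Sds and Gls2 are at 3.44% to 8.16% in fructose tumour 3.

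The 5 tumours differed in how low each of the 9 transcripts was. The percentages plotted are of the mean of the 9-month livers on the tumour's own diet. In fructose tumour 3, the library of high Glul and Axin2, Hal was at 3.93%, Sds at 3.44% and Gls2 at 8.16% of that liver mean. Etnppl (9.49%), Tat (17.2%) and Hpd (21.9%) were also low there, while Hgd was at 77.2%. Uroc1, the enzyme after Hal in histidine breakdown, was 442 normalised counts there, against 2519 to 7042 in the other 4 tumours and 5306 to 8638 in the 9-month livers. The summed level of the 14 pericentral markers, Glul among them, was 298088 in that library and 16566 in the lowest fructose tumour. It was 52538 to 152515 in the cornstarch tumours. The 9-month livers had 166534 to 248240 on fructose and 156190 to 289328 on cornstarch, so 298088 was just above the highest of these livers. Fructose tumour 1 was also low in Sds (14.3%) and Hal (25.8%). Hpd stood at 7.54%, Hgd at 17.4% and Etnppl at 2.09% of the liver mean there, and Gls2 was the highest of the 9 at 49.0%. Fructose tumour 2 had Tdo2 at 108%, Hgd at 70.9% and Fah at 69.3%, but Etnppl at 1.94%. In cornstarch tumour 1 all 9 genes lay between 35.3% and 68.4%, and in cornstarch tumour 2 they lay between 3.20% (Etnppl) and 97.2% (Gls2). These percentages are values of single libraries and carry no test.

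Within each diet, the tumour difference was called for the same 5 genes on fructose, where 4.46% of genes were called lower, and for none on cornstarch, where 0.889% were. On fructose the log2 differences were -2.68 for Hpd, -0.91 for Fah, -2.68 for Hal, -3.06 for Sds and -4.78 for Etnppl, and in limma's test the adjusted p-values were 0.00551, 0.0181, 0.0327, 0.0263 and 0.00782. On cornstarch, with 2 tumours, Hpd differed by -1.67 (limma, adjusted p = 0.0704) and Etnppl by -3.05 (0.0866), and the other 7 by -1.22 to -0.36. All 9 were negative on both diets, but the fructose and cornstarch values are from 1 fit and are not independent. The difference between the diets in this effect was tested as an interaction and was called for none of the 9.

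**Figure D3:**
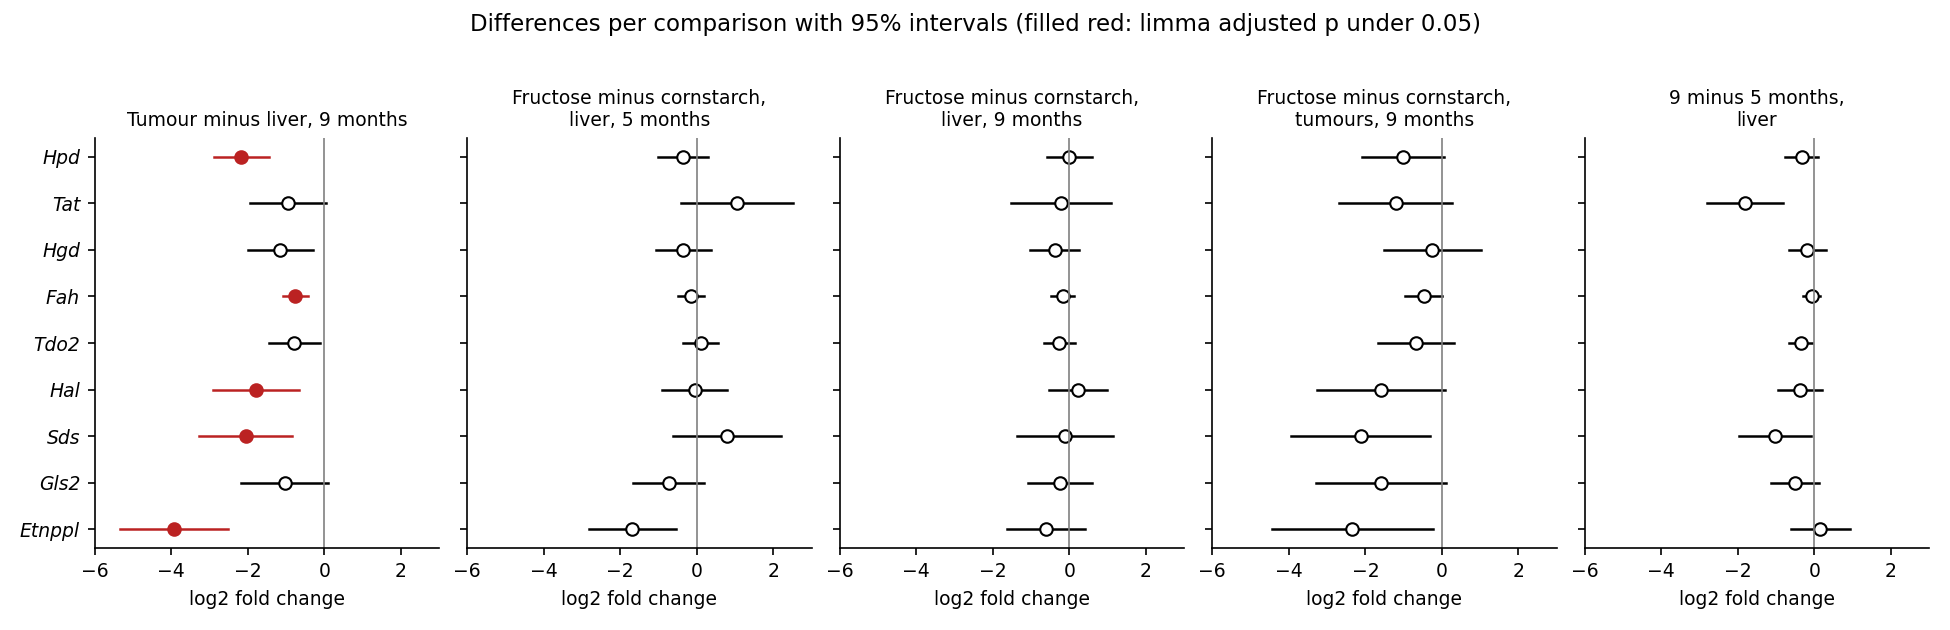
Fitted log2 difference of each of the 9 genes, with its 95% confidence interval, for tumour against liver at 9 months, for fructose against cornstarch in each tissue and age, and for 9 against 5 months in liver. Filled points passed the adjusted threshold of 0.05, and these are the 5 genes lower in tumours.

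The other genes of these pathways, from lists of breakdown enzymes and transporters, moved with the tumours to differing degrees. Of all 14503 genes tested, 1521 (10.5%) were called lower and 1937 higher. The same background holds for the other breakdown lists and the zonation markers below. Among 8 tested genes of phenylalanine and tyrosine breakdown other than the members, 2 fell, among them Gstz1, the step between Hgd and Fah (log2 difference -0.59, limma adjusted p = 0.0130). Of 10 tryptophan and kynurenine genes, 5 fell, led by Afmid (-1.51) and Aadat (-1.63), which act after Tdo2 (limma, adjusted p = 0.000603 for each). Aadat was 1007 to 1813 in the 6 livers and 209 to 802 in the 5 tumours. Of 5 histidine genes, 1 fell, Hnmt, which methylates histamine (-0.56, limma adjusted p = 0.0348). Uroc1 differed by -1.15 and did not pass (0.160).

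The list of serine, glycine and threonine breakdown had 5 of 11 lower, among them Srr, which racemises or dehydrates serine (-1.06, limma adjusted p = 0.00355), and Agxt2 (-0.68, 0.00767). Lysine and proline breakdown had 7 of 9 lower, with Pipox (-1.10, limma adjusted p = 0.00121) and Gcdh (-1.22, 0.00214) leading. Branched-chain breakdown had 13 of 16 lower, with Aldh6a1 at -0.91 (limma, adjusted p = 0.00110) and Hibadh at -1.12 (0.00121). The medians of these 3 lists were -0.51, -0.80 and -0.64, against -0.01 over all genes tested.

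Glutamine, glutamate and alanine metabolism went both ways, with 2 of 8 higher and 1 lower. Glud1, the mitochondrial glutamate dehydrogenase, rose by 0.86 (SE 0.18, limma adjusted p = 0.00784), from 15043 to 18801 in livers to 18543 to 41663 in tumours.

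**Figure D4:**
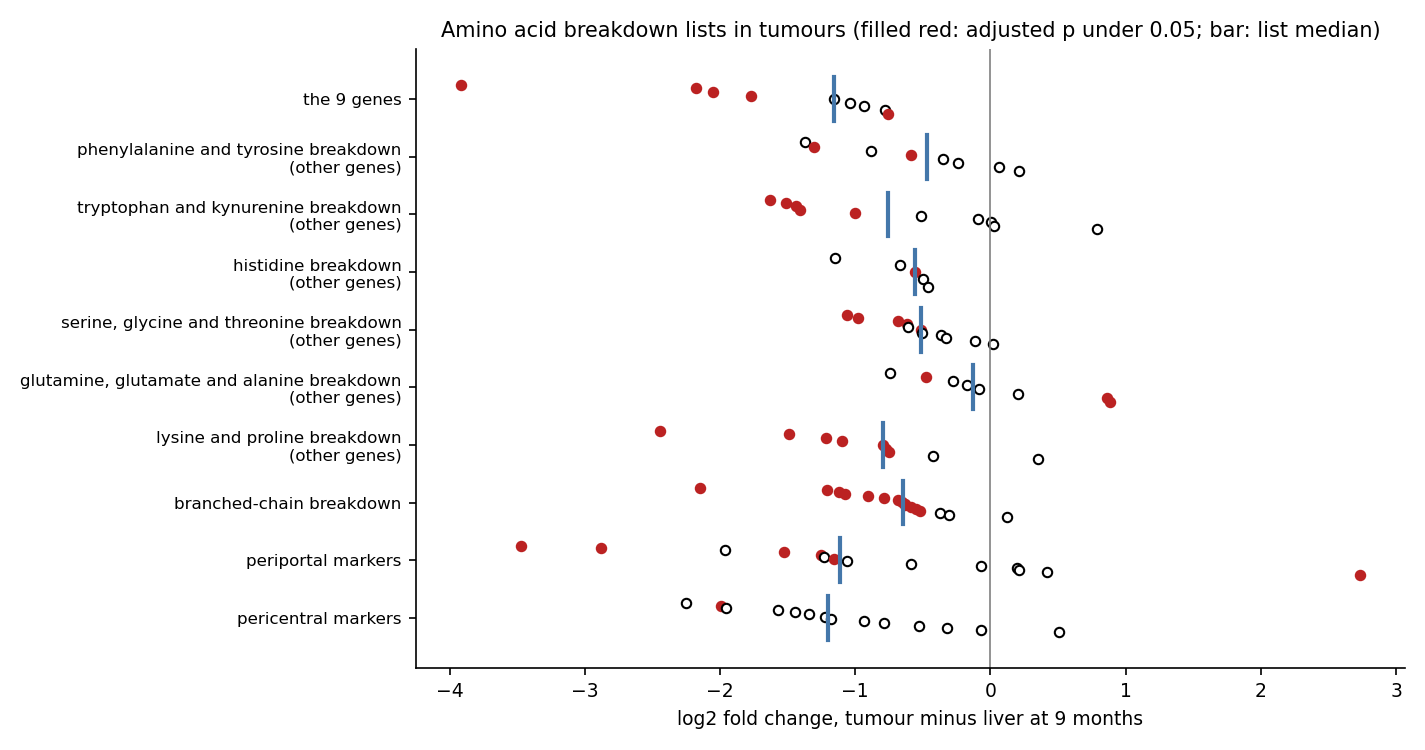
Log2 difference between tumours and 9-month livers of each tested gene in the breakdown and zonation lists (points, spread vertically only to separate them, filled red where limma's adjusted p was under 0.05), with each list's median as a bar and 0 as a line. Branched-chain breakdown has 13 of 16 genes called lower, and the glutamine, glutamate and alanine list has called genes on both sides of 0.

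Zonation markers were read beside the 9 genes, since a bulk library does not show position in the lobule. Of 14 periportal markers, 5 fell and 1 rose in tumours, with Cyp2f2 at -2.88 (limma, adjusted p = 0.000598), Sult5a1 at -3.47 (0.000947) and the adhesion gene Cdh1 at 2.73 (9.62e-05). Of 14 pericentral markers, 1 fell, Cyp2e1 (-1.99, limma adjusted p = 0.0379). The median of the pericentral list, -1.20, was nevertheless as low as that of the periportal list, -1.11. Hepatocyte markers, a list that also holds Cyp2e1, had 2 of 11 lower, Cyp2e1 among them, and 1 higher, with a median of -0.03. Alb, in that list, was 910417 to 1514780.0 in the livers and 1111380.0 to 3423440.0 in the tumours. The summed hepatocyte list was 1581390.0 to 2332500.0 in livers and 1820480.0 to 5032210.0 in tumours.

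Markers of other cells moved in the same comparison, in which 1521 of all 14503 genes were called lower and 1937 higher. Of 11 neutrophil markers tested, 1 rose and the list's median difference was 0.08. Their sums were 326.9 to 4547 in 9-month livers and 6433 to 24761 in tumours, and were carried by Lcn2, which hepatocytes also make in the acute phase (203 to 4165 in livers and 6287 to 24527 in tumours). Of 5 bile duct markers 1 rose, with a median of 0.05, and Spp1 (749 to 1419 and 1917 to 9700) carried the sums of 832 to 1590.1 and 1998 to 9974. Of 10 stellate cell and matrix markers 4 rose and 1 fell, with a median of 0.70 and sums of 3814 to 7799 in livers and 6374 to 11702 in tumours. Of 12 macrophage markers 3 fell (median -0.52), and of 8 endothelial markers 1 fell (median -0.46). The mitochondrial share of reads was 4.68% to 7.73% in the livers and 2.54% to 4.29% in the tumours, without overlap. Lcn2 and Spp1 were named after their values were seen. The part of these cells and of the mitochondrial share in the 5 differences was not tested.

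Across all 16 libraries the 9 genes rose and fell together, with a median Pearson correlation of 0.786 over their 36 pairs (range 0.452 to 0.946, on the log2 scale). After the group means were removed the median was 0.405 and 26 of the 36 pairs were positive. Hal, Sds and Gls2 then had correlations of 0.868 (Hal with Sds), 0.939 (Hal with Gls2) and 0.908 (Sds with Gls2), whereas Tat and Etnppl ran opposite at -0.484. Leaving out fructose tumour 3, a choice made after seeing the data, gave a median of 0.798 over the remaining 15 libraries. With group means removed it gave a median of 0.342, 32 positive pairs, 0.832, 0.804 and 0.878 for the 3 pairs of Hal, Sds and Gls2, and -0.333 for Tat with Etnppl. All points share their library and its depth factor.

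Correlations with 14 periportal markers had medians over the markers of 0.569 (Etnppl) to 0.784 (Fah) in the 16 libraries. Those with 14 pericentral markers were lower for Gls2 (-0.14), Hal (-0.01), Tat (0.01), Sds (0.04), Tdo2 (0.127) and Fah (0.373), and were 0.543 for Hpd, 0.589 for Hgd and 0.609 for Etnppl. The low pericentral values rested on fructose tumour 3. Without it the pericentral medians were 0.471 for Gls2, 0.661 for Hal, 0.367 for Tat, 0.604 for Sds, 0.645 for Tdo2 and 0.822 for Fah, and 0.758 to 0.848 for Hgd, Hpd and Etnppl. The periportal medians without it were 0.461 (Tat) to 0.739 (Hpd and Fah). In those 15 libraries the 9 genes had positive medians with both marker lists. The pericentral median was above the periportal one for Hpd, Hgd, Fah, Tdo2, Etnppl and, barely, Gls2 (0.471 against 0.468). It was below the periportal one for Tat, Hal and Sds.

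The genes whose levels tracked each member most closely over the 16 libraries were in several cases enzymes of the same pathways. Fah was closest to Aldh8a1 (r = 0.976) of kynurenine breakdown and to Gstz1 (0.964). Tdo2 was closest to Kmo (0.940) and Aass (0.939), and Sds and Gls2 each had Hal among their 3 closest (0.946 and 0.936). Tat was closest to Klf15 (0.941), a transcription factor of the fasting response, Hpd to Lrit1 (0.972), and Etnppl to Cyp2j5 (0.975) and the bile acid transporter Slc10a1 (0.967). Hal was closest to Colec10 (0.959), Efemp1 (0.956) and Rspo3 (0.956), and Enpep was among the 3 closest to Hgd (0.948). For the mean of the 9 standardised genes the closest were Cth (0.969), Lrtm1 (0.959), Slc38a4 (0.958), Gnmt (0.955) and Kynu (0.950). Without fructose tumour 3 the correlations of Hal were 0.882 with Colec10, 0.885 with Efemp1, 0.869 with Rspo3, 0.923 with Sds and 0.816 with Gls2, and Tdo2 stood at 0.907 with Kmo and 0.910 with Aass. The values describe these libraries and were given no p.

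The comparison of diets in livers at 5 months, the earlier age, gave no call among the 9 in limma's test, where 14.8% of 14317 genes were called. At an unadjusted p under 0.05 there was 1 gene of the 9, Etnppl, where 4258 of the 14317 genes were under it. Of the 9, edgeR called 0 and DESeq2 1, where DESeq2 called 2555 of all genes. Etnppl was 1206 and 541 on fructose and 1467, 2808 and 4278 on cornstarch. Both fructose livers lay below all 3 cornstarch livers. The difference was -1.69 (SE 0.51, 3.22-fold lower, limma adjusted p = 0.0514), just over the threshold. It was -2.10 (0.0205) without cornstarch liver 1 and -2.68 (0.0237) without both libraries with Xist, in which it passed, and -1.11 (0.404) without fructose liver 2. DESeq2's Wald test gave it an adjusted p of 0.00475.

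The other members moved in both directions at 5 months. Gls2 was 5608 and 4694 on fructose and 9603, 6602 and 9746 on cornstarch, lower without overlap (-0.73, SE 0.42, limma adjusted p = 0.275). Fah was also lower without overlap, by -0.15, and Sds was higher without overlap, at 6627 and 9074 against 6384, 3391 and 4103 (0.80, SE 0.64, limma adjusted p = 0.448). Groups of 2 and 3 fail to overlap often, in 24.7% of all genes downward and 27.1% upward here. Tat was 80092 and 61658 on fructose and 82805, 25014 and 18566 on cornstarch. Its highest values included both libraries with Xist, and its difference was 1.06 (SE 0.66, limma adjusted p = 0.322) and 1.52 without them. The 4 remaining differences, for Hpd, Hgd, Tdo2 and Hal, were -0.36 to 0.10.

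Elsewhere in these pathways at 5 months, breakdown genes were lower on fructose where they were called at all. Of all 14317 genes tested, 641 were called lower and 1478 higher. Branched-chain breakdown had 7 of 16 lower, with Hibadh at -0.95 (limma, adjusted p = 0.00722) and Dbt, a subunit of the branched-chain ketoacid dehydrogenase, at -0.73 (0.0165). Lysine and proline breakdown had 2 of 9 lower, Hykk (-0.96, limma adjusted p = 0.0123) and Pipox (-0.67, 0.0274). Tryptophan breakdown had 2 of 10 lower, Aadat (-0.66, limma adjusted p = 0.0127) and Afmid (-1.10, 0.0490). Serine, glycine and threonine breakdown had 1 of 11 lower, Gcat (-0.87, limma adjusted p = 0.0253). No gene of these lists was higher at the threshold. Of the pericentral markers 6 of 14 were lower as well, and of the periportal markers 2 were lower and 1 higher. Beside these values, all 13 neutrophil markers were higher on fructose, with summed levels of 62710 to 92460 against 214 to 1100.5, and 13 of 14 acute-phase genes were higher. Macrophage sums were 18032 to 19568 against 6911 to 11632. The part of these cells in the differences was not tested.

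Diets in livers at 9 months differed less. None of the 9 genes was called, where 2.54% of all genes tested were, and none had an unadjusted p under 0.05 in limma, edgeR or DESeq2. Etnppl was again lower on fructose, at 1257, 1948 and 920.0 against 2733, 2366 and 1213, but with overlap (-0.60, SE 0.46, 95% interval -1.62 to 0.42). Every member overlapped between the diets. The difference of Hal was 0.23, and -0.0835 without cornstarch liver 3, which had both Xist and Y-linked signal. The other 7 lay between -0.39 and -0.00213, and the sign of Hpd, Fah and Sds turned under another scaling. In the related lists Aadat was the 1 gene called, lower by -0.60 (limma, adjusted p = 0.0424), at 1097, 1007 and 1015 on fructose against 1465, 1813 and 1462.

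Diets in tumours gave no call, for these genes or for any of 14503 genes (0%), in limma's test. At an unadjusted p under 0.05 there were 1178 genes, among them Sds and Etnppl, while edgeR called 0 genes and DESeq2 119, none of them a member. All 9 differences were negative. Sds (-2.13, SE 0.82), Hal (-1.58, SE 0.76), Gls2 (-1.60, SE 0.77) and Fah (-0.48, SE 0.22) had every fructose tumour below both cornstarch tumours, as 12.5% of all genes did. The adjusted p-values in limma's test were 0.558 to 0.626 for these 4. Without fructose tumour 3 the differences became -1.36 for Sds, -0.64 for Hal and -0.69 for Gls2. Etnppl differed by -2.34 (SE 0.95, limma adjusted p = 0.593), and by -0.52 without cornstarch tumour 1.

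The diet effect was compared between tumour and liver at 9 months, and between 9 and 5 months in liver. Neither difference was called for any of the 9 genes. The first was called for 0% of all genes and the second for 0.698%, and no member had an unadjusted p under 0.05 in limma, edgeR or DESeq2. Sds had the largest tumour-minus-liver difference in diet effect, -2.01 (95% interval -4.44 to 0.41), and Tat the largest between ages, -1.27 (-3.24 to 0.70). Both intervals include 0 and span more than 3 log2 units. These comparisons share their livers with those above.

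Livers of 9 months were set against those of 5 months, over both diets weighted equally, to follow the enzymes with age. In limma's test 0 of the 9 passed, where 2.77% of all genes did, and 3 had an unadjusted p under 0.05 (Tat, Tdo2 and Sds). By p these 3 ranked 490, 2220 and 2665 among 14317 genes. Of the 9, edgeR called 0 and DESeq2 1, Tat, where DESeq2 called 1081 of all genes. Tat was 18566 to 82805 in the 5 livers of 5 months and 8760.5 to 33631 in the 6 livers of 9 months. The groups overlapped through cornstarch liver 1 (33631) and fructose liver 2 (18867) of 9 months and cornstarch livers 2 and 3 (25014 and 18566) of 5 months. The difference was -1.82 (SE 0.45, 3.52-fold lower, limma adjusted p = 0.0573). It was -2.11 without the 9-month cornstarch liver 1, and passed there, but -1.40 (limma, adjusted p = 0.238) without both libraries with Xist and -1.29 (0.275) with a term for sex.

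Sds was lower at 9 months by -1.03 (SE 0.43, limma adjusted p = 0.194), from 3391 to 9074 at 5 months to 1085 to 6202. Tdo2 was lower by -0.35 (SE 0.14, limma adjusted p = 0.168), from 24075 to 27632 to 17809 to 25825. The remaining differences were -0.51 to 0.15, and Etnppl alone was positive. Of 16 genes of the response to glucagon, fasting and glucocorticoids, 15 had a negative difference with a median of -0.87, against -0.01 over all genes, and none was called. Other lists moved more: 11 of 13 neutrophil markers (median -2.84) and 6 of 14 acute-phase genes (median -1.23) were called lower at 9 months, and none higher. Both libraries with Xist were of 5 months. The part of these in the age differences was not tested. The labels gave no feeding state or time of day at harvest, so these cannot be told apart from age.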

How the data were processed

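The authors deposited signal values, as normalised counts for each gene and library. Reads had been divided by a single factor per library, as the values show, and whole reads were recovered from them within 0.01 for 100% of values. The submitters' processing notes name FastQC, Trim Galore, STAR, RSEM, DESeq2 and GRCm38, without versions or settings. Replicates were numbered in accession order. Members and gene lists were chosen with earlier results of these data known.

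limma 3.58.1 in R 4.3.3 was fitted to log2(value + 1), with 1 mean per group, over the 11 livers or, for tumours, the 11 libraries of 9 months. A gene was tested if at least 2 libraries of the fit reached a value of 10. Benjamini-Hochberg adjustment ran over all tested genes, with a threshold of 0.05. Recovered reads were tested with edgeR 4.0.16 and DESeq2 1.42.0 as alternatives, beside other pseudocounts, filters, scalings and choices of libraries. The code was tested on simulated data. Named were all 9 members, the 2 genes of smallest p per breakdown list and comparison, the 3 of smallest p per zonation or fasting list, and the genes most correlated with each member, among genes with a mean of at least 50. Glul, Axin2, Alb, and Uroc1's and Aadat's single values, were named after being seen. Exon lengths and coordinates came from GENCODE M21. Chi-square per degree of freedom between replicates was 42.1 to 224, so none was a library deposited again. Some genes that this rule names are not reported here.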

Additional observations from a re-analysis of the deposited data

How the results depend on the processing

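The lowest value of a member rested on 33 reads, and groups held 2 or 3 libraries. All 5 tumour calls were also made with each other pseudocount, filter, scaling and tool. No paired analysis was possible because the labels carry no replicate numbers and tie no tumour to a liver. A fit of the compared groups alone was already the one used for tumour against liver and for the diet differences between ages and tissues. A sex term could not be fitted to the 11 libraries of 9 months, which all had Y-linked signal. It could be fitted to the 11 livers, where diet at 9 months then had 270 genes and 0 members called. The cause of the changes below was not tested.

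For tumour against liver, leaving out 1 library gave 3 to 7 members and 1498 to 3623 genes called. For diet at 5 months, 1 member was called with a pseudocount of 8, quantile scaling, DESeq2 or without both libraries with Xist, and 0 to 1 with 1 library left out. Genes called there were 973 without both and 459 to 2038 with 1 left out, and quantile scaling split the calls into 1226 higher and 1071 lower, against 1478 and 641. For diet at 9 months, genes called were 221 with quantile scaling, 969 with DESeq2, 0 with the compared groups alone, 46 without both libraries with Xist, and 0 to 448 with 1 left out. For diet in tumours they were 2 with a pseudocount of 0.5, 1 each with no filter, quantile scaling and TMM, 119 with DESeq2, and 0 to 23 with 1 left out. For age, 1 member was called with a pseudocount of 8 or DESeq2, and 0 to 1 with 1 left out. Genes called for age were 1081 with DESeq2, 42 without both libraries with Xist, 23 with a sex term and 15 to 796 with 1 left out, and quantile scaling split them into 197 higher and 324 lower, against 110 and 287. For the diet effect between ages, they were 40 and 203 with pseudocounts of 0.5 and 8, 38 with the stricter filter, 46 with edgeR, 318 with DESeq2, 37 without both libraries with Xist, and 2 to 83 with 1 left out.

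Among single genes, those whose sign turned had not passed the test. Quantile scaling gave log2 differences of 0.12 for Hal (diet, 5 months), 0.13, 0.0283 and 0.0404 for Hpd, Fah and Sds (diet, 9 months), 9.98e-05 for Fah (age), and 0.11 and 0.0565 for Hgd and Fah (diet between ages). Hpd (diet, 9 months) was 0.0165 with TMM, 0.0426 with edgeR and 0.0286 with DESeq2, Hgd (diet in tumours) was 0.0228 with DESeq2, and Hgd (diet between ages) was 0.30 without both libraries with Xist. With 1 library left out, Hal ranged from -0.12 to 0.0379 for diet at 5 months. For diet at 9 months, Hpd ranged from -0.17 to 0.18, Tat from -0.59 to 0.38, Hal from -0.0835 to 0.63, Sds from -0.52 to 0.57 and Gls2 from -0.61 to 0.12. Hgd ranged from -0.63 to 0.45 for diet in tumours, and Etnppl from -0.13 to 0.44 for age. For diet between ages, Hgd ranged from -0.33 to 0.25, Fah from -0.13 to 0.0366 and Hal from -0.0265 to 0.69. For diet between tumour and liver, Hgd ranged from -0.24 to 0.83 and Etnppl from -3.55 to 0.0774.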
